A study of Mus musculus with 3 samples.

Results

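Processed pseudogenes are copies of messenger RNAs that were reverse transcribed and inserted into the genome. The series annotated 10004 genes whose transcripts were all of this class, of 55536 mouse genes. In the gene tables, 339 of them reached 10 expected counts (estimated counts that need not be whole) in all 3 libraries, which is 3.39% of the class, against 21.9% of all mouse genes. The 339 detected processed pseudogenes described here were chosen by these expected counts, so their detection and level are given as a description and without a test.

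All 3 libraries formed 1 group: total RNA, depleted of ribosomal RNA, from the chromatin fraction of primary macrophages grown from bone marrow of C57BL/6J mice. The cells had received lipid A, which is the membrane anchor of bacterial endotoxin and is sensed through the receptor TLR4, at 100 ng/ml for 50 min, and neither an untreated culture nor another fraction was analysed here. Replicate 1 was made from 1000 ng of RNA, replicate 2 from 250 ng and replicate 3 from 500 ng. The labels name 1 donor code for the 3 libraries and give neither sex nor age, so a spread between libraries (given as SD, n = 3) may be technical.

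A processed pseudogene is inserted without introns, because its source was a spliced message, and it usually lacks a promoter of its own. The annotation gives 1 exon for 315 of the 339 detected ones. Many came from abundant housekeeping messages, above all those of ribosomal proteins. Where one lies in an intron of another gene, the primary transcript of that gene runs across it before splicing, and chromatin-associated RNA is rich in such unspliced transcripts. A recent copy keeps nearly the whole sequence of its source, so that short reads from either can fit both.

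A few sequences are shown, as GENCODE M21 transcripts give them, because the number of differences from the source sets how far reads can be told apart. The first set is a stretch of 120 coding bases of Rpl21, which encodes a protein of the large ribosomal subunit, beside the same stretch of 2 copies. Capitals mark bases that differ from the coding transcript.
Rpl21: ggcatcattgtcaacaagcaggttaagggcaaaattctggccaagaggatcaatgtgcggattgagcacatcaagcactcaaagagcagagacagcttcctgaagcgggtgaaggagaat
Gm10163: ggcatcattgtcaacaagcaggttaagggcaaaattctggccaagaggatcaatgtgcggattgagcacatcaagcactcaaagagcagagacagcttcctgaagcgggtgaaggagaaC
Gm47727: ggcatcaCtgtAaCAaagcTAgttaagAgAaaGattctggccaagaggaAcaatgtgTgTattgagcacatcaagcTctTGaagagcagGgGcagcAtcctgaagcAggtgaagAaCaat
Gm10163 (GRCm38 chr9:88391053-88391172, plus strand) differs from Rpl21 by 1 base here, T120C counted from the first base shown, and by 2 of 481 bases over its length. Its longest stretch without a difference is 335 bases. Gm47727 (chr13:20828052-20828171, plus strand) differs by 21 of these 120 bases and by 77 of 481 in all, and its longest identical stretch is 29 bases. In Rpl21 itself these 120 bases lie in 2 exons (chr5:146835079-146835657, plus strand), whereas each copy holds them in 1 block.

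The second set shows copies that have stayed close to their source: prohibitin (Phb, a mitochondrial scaffold protein), ribosomal protein L27 (Rpl27), the caspase-8 inhibitor c-FLIP (Cflar) and the RNA helicase eIF4A1 (Eif4a1).
Phb: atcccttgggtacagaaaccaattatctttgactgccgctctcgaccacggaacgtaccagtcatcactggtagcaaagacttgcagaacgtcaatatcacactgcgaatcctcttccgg
Gm7666: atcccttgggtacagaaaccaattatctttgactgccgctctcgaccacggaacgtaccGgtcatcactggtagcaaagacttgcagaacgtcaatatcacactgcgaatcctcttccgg
Rpl27: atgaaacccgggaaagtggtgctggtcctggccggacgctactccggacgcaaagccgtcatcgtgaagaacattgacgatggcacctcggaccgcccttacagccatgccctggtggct
Gm6341: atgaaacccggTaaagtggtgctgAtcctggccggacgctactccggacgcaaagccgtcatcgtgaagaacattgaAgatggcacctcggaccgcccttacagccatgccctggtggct
Cflar: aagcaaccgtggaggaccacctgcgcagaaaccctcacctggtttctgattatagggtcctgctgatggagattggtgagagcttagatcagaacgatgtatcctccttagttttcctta
Gm9845: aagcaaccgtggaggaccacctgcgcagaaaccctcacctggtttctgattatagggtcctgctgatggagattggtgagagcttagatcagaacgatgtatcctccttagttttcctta
Eif4a1: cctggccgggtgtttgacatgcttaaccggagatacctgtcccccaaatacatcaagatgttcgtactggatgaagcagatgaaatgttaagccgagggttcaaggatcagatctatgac
Eif4a-ps4: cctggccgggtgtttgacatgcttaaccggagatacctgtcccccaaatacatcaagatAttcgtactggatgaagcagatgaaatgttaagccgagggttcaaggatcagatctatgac
Gm7666 (chr15:6654094-6654213, plus strand) has A60G as its single difference from Phb in 819 bases. Gm6341 (chr7:101154924-101155043, minus strand) has G12T, G25A and C78A here and 6 differences from Rpl27 in 411 bases. Gm9845 (chr3:39358545-39358664, minus strand) has no difference from Cflar in 598 bases, and Eif4a-ps4 (chr1:60704406-60704525, plus strand) has G60A only, in 1218 bases. Each source holds the bases shown in 2 exons and each copy in 1 block.

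The third set is a pair of copies of Hnrnpa3, which encodes an RNA-binding protein of the hnRNP family. They lie 2543 bases apart, on the strand of the gene Tm9sf2 that contains both.
Hnrnpa3: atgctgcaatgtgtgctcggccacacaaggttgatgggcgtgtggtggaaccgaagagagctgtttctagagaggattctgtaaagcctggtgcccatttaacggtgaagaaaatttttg
Gm6254: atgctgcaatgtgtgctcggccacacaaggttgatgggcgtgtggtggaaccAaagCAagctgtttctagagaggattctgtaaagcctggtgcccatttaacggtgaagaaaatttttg
Gm17082: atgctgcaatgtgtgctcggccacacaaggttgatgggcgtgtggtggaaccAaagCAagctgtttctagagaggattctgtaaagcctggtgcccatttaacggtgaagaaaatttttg
Gm6254 (chr14:122118140-122118259, plus strand) and Gm17082 (chr14:122121834-122121953, plus strand) carry the same 3 differences from Hnrnpa3, G53A, A57C and G58A. Over all aligned bases the first differs at 5 of 1072 and the second at 46 of 1051. A further 40 bases of the second were not aligned.

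Summed over mouse genes, replicate 1 held 10496703 expected counts, replicate 2 held 17687379 and replicate 3 held 14806118. All 10 macrophage markers tested were detected, at 11.8 to 179 mean TPM (a level scaled to transcript length and to the library). Of the 22 markers of T, B, neutrophil, fibroblast and erythroid cells, 1 T cell marker was detected, and no list summed to more than 2.03 TPM in a library. In bulk RNA, fewer cells and less RNA per cell cannot be told apart.

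The detected processed pseudogenes were modest in level. Their median was 4.96 TPM (mean of the 3 libraries for each), with quartiles of 2.24 and 10.8 and a range from 0.307 to 134. The library medians were 6.33, 3.48 and 4.66 TPM in replicates 1, 2 and 3. For comparison, the 12167 detected genes of all classes had a median of 4.43 TPM. Together the 339 took 0.291%, 0.176% and 0.176% of gene-level counts. At least 10 TPM was reached by 95 of them, 50 TPM by 17 and 100 TPM by 3. Counts were low: the median mean count was 37.3, against 137.7 over all detected genes, and 67 reached a mean of 100. Just inside the minimum stood Gm13350 (10, 14 and 11 expected counts in replicates 1, 2 and 3), Gm15846 (10, 30 and 14) and Gm17827 (21, 10 and 19). Just outside it stood Gm12346 (9.97, 18.8 and 19.7), Gm13509 (9.35, 37.5 and 11.5) and Gm15710 (9.18, 16.6 and 10.6). A further 222 processed pseudogenes reached 10 counts in some library but not in all, and 7874 had 0 in every library.

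Most detected copies lay inside other genes, and most undetected ones did not. Of the 339, 282 (83.2%) lay wholly within the span of another annotated gene, called the host below, against 2538 of 9665 undetected processed pseudogenes (26.3%). The host was on the same strand for 104, on the opposite strand for 168, and on both for 10. The remaining 57 lay outside any gene that contains them whole, where 7127 of the undetected ones lay. No exon of the host was overlapped by 265 of the 282, so they sat in introns. The hosts were 252 genes, 241 of them protein-coding, and 26 held at least 2 detected copies. Of the same-strand hosts 97.4% were detected themselves, against 33.4% for the hosts of undetected copies, and the median same-strand host stood at 22.4 TPM against 0.0200.

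The strand setting of the quantification is not given in the sources used here. RNA of the pseudogene and RNA of its host therefore cannot be told apart where they overlap. This holds for a same-strand host in any case, and for an opposite-strand host unless strand was used.

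The detected share was higher in hosts of higher level, on either strand. In hosts below 1 TPM, 2 of 635 same-strand and 4 of 1009 opposite-strand copies were detected. In hosts of 5 to 20 TPM the counts were 32 of 118 (27.1%) and 50 of 232 (21.6%). In hosts of at least 50 TPM they were 23 of 45 (51.1%) and 44 of 75 (58.7%). Outside genes 57 of 7184 (0.793%) were detected, against 0.365% in hosts below 1 TPM and 47.3% (156 of 330) in hosts of at least 20 TPM on 1 strand. The detection rule counts reads, so length entered as well: in hosts of at least 20 TPM, 9 of 52 copies under 300 bases and 27 of 40 copies of 1000 bases or more were detected. With any count above 0 in each library in place of 10, those numbers were 23 and 35. Without 1 replicate at a time the share in hosts of at least 20 TPM was 49.3% to 50.9%, and outside genes 0.821% to 1.06%.

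**Figure D1:**
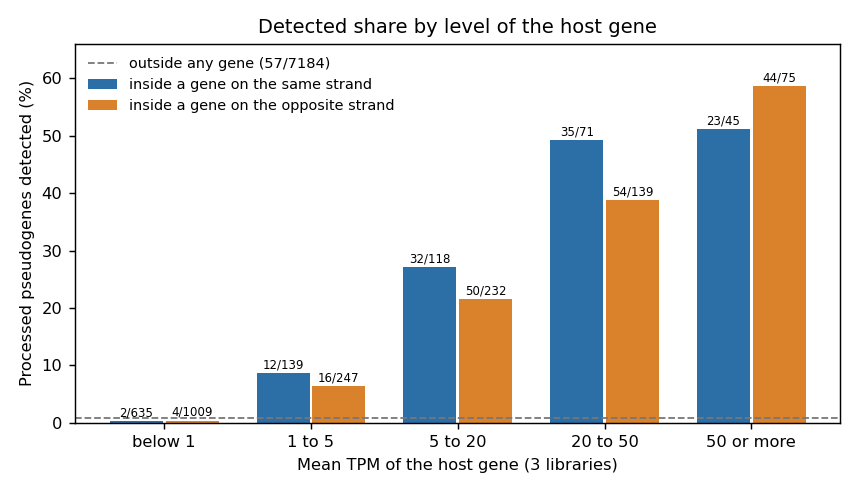
Share of processed pseudogenes detected at 10 expected counts in all libraries (vertical axis, percent), by mean TPM of the gene that contains them (horizontal axis) and by strand. Numbers over the bars are detected copies over all copies, and the dashed line is the share outside genes, 57 of 7184. Same-strand shares reach 51.1% and opposite-strand shares 58.7% in the highest hosts.

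Across copies, Spearman's rho between the mean TPM of the copy and of its host was 0.51 for same-strand hosts (n = 114) and 0.54 for opposite-strand hosts (n = 178), counting those with a host on each strand in both. With the gene of the best coding match it was 0.10 (n = 322). For the deviations of each library from the mean (log2 TMM-normalised CPM, 3 for each copy), Pearson's r was 0.21 with the same-strand host, 0.20 with the opposite-strand host and 0.12 with the source. Among copies with a mean of at least 100 counts these were 0.62 (n = 29), 0.51 (n = 31) and 0.21 (n = 62). All are descriptions across genes of the same 3 libraries, and several copies share a host or a source. Copies were usually lower than the host. The median ratio was 0.232, and 44 of 282 exceeded it.

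**Figure D2:**
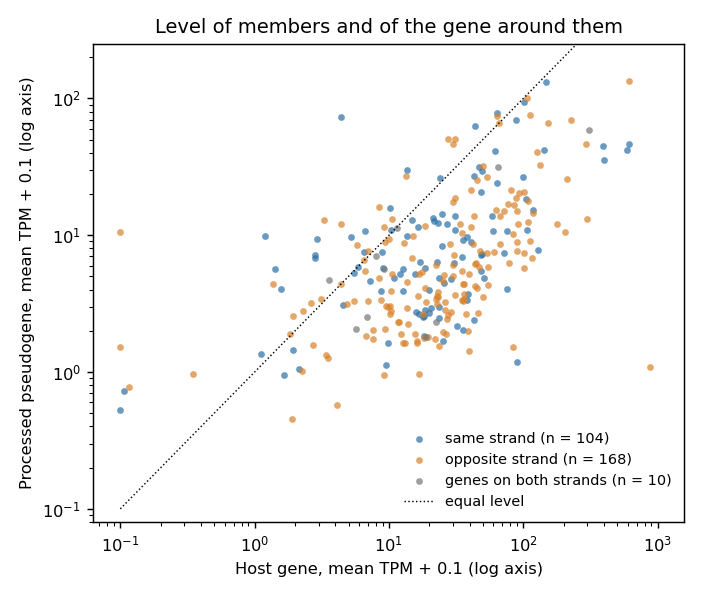
Mean TPM over 3 libraries of each detected processed pseudogene inside a gene (vertical axis) and of that gene (horizontal axis), both with 0.1 added and on log axes, with strand in colour. Most points lie under the dotted line of equal level, and points of both strands rise together.

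Fchsd2, which encodes an endocytosis adaptor, held 2 of the strongest, 1 on each strand. Gm6341 (ENSMUSG00000083121.3, chr7:101154645-101155055), the Rpl27 copy shown above, lies opposite to it and was the highest by mean TPM of all, at 198, 68.7 and 137 TPM in replicates 1, 2 and 3 (134 ± 64.5, SD). Gm47324 (ENSMUSG00000111425.1, chr7:101238218-101239278), a copy of the dynein assembly factor gene Dnaaf2, lies on the strand of Fchsd2 and stood at 95.5, 12.8 and 31.2 TPM (46.5 ± 43.4). Fchsd2 itself stood at 1057, 258 and 519 TPM. Rpl27 stood at 27.6, 18.0 and 27.1 TPM and Dnaaf2 at 0.290, 0.180 and 0.230. In TPM the host, both copies and both sources all had the order replicate 1, 3, 2, as did the library medians of the detected copies. In TMM-normalised CPM Fchsd2 (2084, 752 and 1207), Gm6341 (45.1, 19.3 and 30.2) and Gm47324 (88.6, 16.6 and 32.0) kept that order. For the sources only counts are given beside TPM: 147, 170 and 173 for Rpl27 and 12.3, 14.9 and 12.6 for Dnaaf2. Whether the copies follow host or source was not tested. Without replicate 1 the mean of Gm47324 was 22.0 TPM. Gm6341 was above Rpl27 in every library. Its posterior SD, the uncertainty the deposited tables give for the count when reads can be placed on several genes, was at most 0.191% of the count.

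Aoah encodes acyloxyacyl hydrolase, the enzyme that removes acyl chains from lipid A. Gm47727 (ENSMUSG00000114070.1, chr13:20827836-20828316), the diverged Rpl21 copy shown above, lies in it on the same strand. Its TPM was 211, 80.1 and 102 (131 ± 69.8), and that of Aoah 209, 95.95 and 137. Rpl21 stood at 24.0, 15.5 and 15.6 TPM. In TPM copy, host and source were all highest in replicate 1 and lowest in replicate 2. In TMM-normalised CPM this held for the copy (63.7, 30.9 and 31.1) and for Aoah (299, 205 and 228). Rpl21 had 218, 227 and 153 expected counts, the fewest in replicate 3. The posterior SD of Gm47727 was 0 in every library, so its reads were placed on no other annotated gene. Unspliced RNA of Aoah across the copy cannot be told apart from RNA of the copy by this value.

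Peli1, which encodes a ubiquitin ligase of Toll-like receptor signalling, was 1 of the 2 hosts found among 60 genes of the lipid A response. 2610024D14Rik (chr11:21099534-21099827), a short copy of the ATP synthase gene Atp5l in Peli1, stood at 130, 27.3 and 77.7 TPM (78.2 ± 51.2) and Peli1 at 100.3, 15.6 and 75.4. Atp5l stood at 9.22, 5.44 and 7.79 (476, 610 and 520 counts), and copy, host and source had the same order of libraries in TPM. In TMM-normalised CPM the copy stood at 14.4, 3.40 and 7.49 and Peli1 at 329.6, 68.4 and 270.5. Values of Atp5l on that scale are not given here. The other was Plek, which encodes the protein kinase C substrate pleckstrin. It stood at 1013, 717 and 904 TPM, above Peli1 in every library, but Gm12014 on its opposite strand, a copy of Scube3, stood at only 1.28, 0.870 and 0.840. In all, 5 processed pseudogenes lay in genes of the list, and these 2 were the detected ones.

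Further named copies lay in hosts of varied function. Gm13357, a copy of Phb in the actin regulator gene Abi1, stood at 113, 75.7 and 93.8 TPM, and Abi1 at 169, 53.7 and 78.8. Gm49134, a Rpl7a copy opposite to the GTP cyclohydrolase gene Gch1, stood at 82.1, 53.1 and 88.5. In both copies replicate 2 was the lowest library in TPM. In TMM-normalised CPM Gm13357 was lowest in replicate 3 (40.9, 35.7 and 35.0) and Gm49134 in replicate 2 (6.44, 4.51 and 5.75). Rpl36-ps2, opposite to the GTPase regulator gene Abr, stood at 73.7, 75.6 and 77.7, even in TPM (75.7 ± 2.01). Gm13650, a copy of the ubiquitin-conjugating enzyme variant gene Ube2v2 in Sestd1, stood at 105.1, 45.5 and 56.95. Gm20612, a Rpl17 copy of 236 bases opposite to the interleukin-10 receptor gene Il10ra, was the shortest of all and stood at 70.4, 66.8 and 60.3. Gm15531, opposite to the macrophage transcription factor gene Mitf, stood at 74.4, 30.5 and 47.1, and Gm11805, a Hmgb3 copy opposite to the kinase gene Lyn, at 23.1, 8.82 and 13.2.

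**Figure D3:**
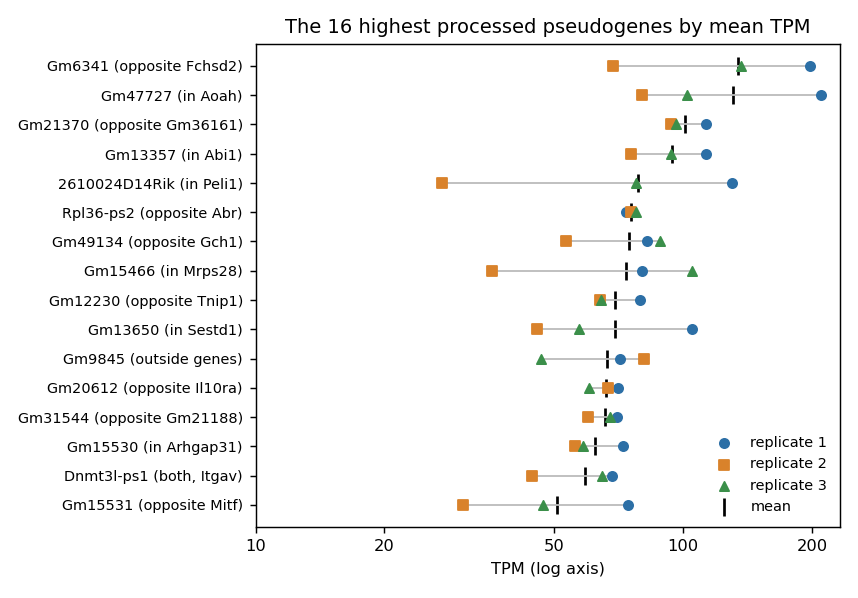
TPM in each library (log axis) of the 16 detected processed pseudogenes with the highest mean TPM, with the containing gene in brackets. Grey lines join the lowest and the highest library. In TPM replicate 2 is the lowest library in most of them. After TMM scaling, which is not shown here, replicates 2 and 3 were close in the median over all detected copies (-0.13 and -0.11). Gm9845 is the only one of the 16 outside genes.

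In some hosts of high level the copies stayed well under the host. Gm17849 in Osbpl8, an oxysterol-binding protein gene, was at 51.8, 35.5 and 47.2 TPM under a host of 395 ± 9.12. Its best coding match, Ccnd3, fell short of the limits for a source (67.9% identity). CT025731.2, a Rps6 copy in the xanthine dehydrogenase gene Xdh was at 50.2, 27.1 and 28.1 under 399. Gm7666, the Phb copy shown above, was at 49.4, 37.7 and 38.4 TPM inside Fyb, an adaptor gene of immune cells at 587 TPM, and overlaps an exon of it. Dnmt3l-ps1, a copy of the DNA methylation cofactor gene Dnmt3l, was at 68.2, 44.2 and 64.6 TPM where Dnmt3l itself was at 0.08, 0 and 0.07. It lies within 2 genes, 1 on each strand, and the one of higher level, the integrin gene Itgav on the opposite strand, stood at 311.

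A few copies stood above their host. Gm15466, a copy of the prothymosin gene Ptma in the mitochondrial ribosomal protein gene Mrps28, stood at 80.1, 35.7 and 105.1 TPM, whereas Mrps28 stood at 3.66, 3.15 and 5.97. All 3 values of the copy lay above all 3 of the host. Gm15467, a Rpl29 copy 594 bases away on the other strand, stood at 8.08, 9.65 and 18.0. Akirin1-ps, opposite to Appbp2 (3.20 TPM), stood at 11.2, 8.76 and 18.3, and Gm13400, a copy of the cyclophilin gene Ppia in the prostaglandin synthase gene Ptges (1.10 TPM), at 12.1, 11.2 and 5.86.

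Where a host held several copies, their levels differed. Atg7, an autophagy gene at 48.5 ± 9.69 TPM, held 3 on its own strand. Gm44331, a copy of the myosin light chain gene Myl6, stood at 28.1, 16.2 and 17.9 TPM. Gm19040, a copy of Camsap1 and the longest of all at 4726 bases, stood at 7.64, 6.91 and 6.58 (455, 797 and 509 counts). Gm44332 stood at 6.85, 4.12 and 5.28. Gm44331 was above the other two in each library. Among neighbours on the genome, 12 pairs of detected copies lay within 10000 bases of each other, 2 of them with the same source. The Hnrnpa3 pair shown above was 1 of these, with Gm6254 at 11.3, 3.81 and 6.05 TPM and Gm17082 at 9.51, 3.59 and 6.88.

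A source was found for most. A protein-coding transcript matched 322 of the 339 at 70% identity or more over at least 50% of the length, against 8939 of 9665 undetected copies (92.5%). Median identity was 90.9% for the detected and 89.0% for the undetected. The match lay mostly in the coding part of the source for 301. An open reading frame of at least 90% of the source's coding length remained in 38 of 322 (11.8%) and in 674 of 8939 (7.54%). Among them was Gm7666, with an open frame of 819 bases. Detected copies were longer (median 777 against 519 bases). A smaller share of their 31-base words was found in no other gene, at a median of 68.1% against 84.9%.

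Ribosomal protein messages were the source of 86 (25.4%), against 2386 of all 10004 (23.9%), and 82 of the 86 lay inside a gene. Their median was 8.62 TPM. RNA-binding proteins of the hnRNP and related families gave 18 of 246 (7.32% detected), which is 5.31% of the detected copies against 2.46% of the class, 10 of them from Hnrnpa3, of whose 49 copies 20.4% were detected. HMG chromatin proteins gave 11 of 250 and glycolytic enzymes 15 of 321, of which 13 were copies of Gapdh (227 in all). Translation factors gave 10 of 193 and oxidative phosphorylation 5 of 221. Proteasome and ubiquitin genes gave 7 of 190, chaperones and cyclophilins 7 of 233, and cytoskeletal genes 5 of 140. Iron and redox genes gave 4 of 59, histones 3 of 97, cell cycle genes 2 of 58, the nuclear proteins that include prothymosin 1 of 76 and mitochondrial carriers 0 of 39. In the whole class the detected share was 3.39%, and no difference between families was tested.

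Gapdh encodes the glycolytic enzyme most often copied in this way. Gm27014, opposite to the chromatin remodeller gene Baz1a, was 70.1% identical and stood at 26.2, 11.5 and 15.5 TPM. Gm17068, in the G protein gene Gnaq, was 91.3% identical and stood at 18.7, 9.45 and 13.0. Gapdh stood at 8.86 TPM, below both copies. Of all 322 with a source, 146 stood above it. The 322 were chosen for their own counts and include the 18 copies matched to noncoding parts of receptor transcripts, described at the end.

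The detected share by level of the source was uneven. For near-identical copies outside genes (at least 98% identity) it was 1 of 171 with a source below 1 TPM, 1 of 134 at 1 to 5, 3 of 235 at 5 to 20, 0 of 70 at 20 to 50 and 6 of 49 (12.2%) at 50 TPM or more. For near-identical copies inside genes the same steps gave 0 of 62, 8 of 71 (11.3%), 10 of 126 (7.94%), 7 of 40 and 10 of 31 (32.3%). The highest step had the highest share in both, but the steps below it did not rise evenly. For copies under 98% identity the shares inside genes were 8.41%, 8.76%, 11.1%, 11.3% and 11.5%. Outside genes they were 1.59%, 0.301%, 0.440%, 0.689% and 0.647%. Of the 22 behind the 1.59%, 14 were copies matched to noncoding parts of receptor transcripts, described at the end. The upper groups are small, and none of these differences was tested.

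For most of the detected copies, reads were not shared with another annotated gene. The posterior SD was 0 in all 3 libraries for 219 of the 339 (64.6%), of which 198 lay inside a gene. In those 198 it does not set the copy apart from unspliced RNA of the host, unless strand does for an opposite-strand host. Among the 46 at 98% identity or more, none had a posterior SD of 0 throughout, and the median of their largest SD was 9.46% of the count. Gm9845, identical to part of Cflar, stood outside any gene at 71.2, 81.2 and 46.5 TPM and held no 31-base word of its own. Its posterior SD was 33.0, 35.3 and 27.0 counts of 371, 750 and 288. Cflar stood at 410, 180 and 270 TPM. The copy was highest in replicate 2, the library where its source was lowest. Gm18852 had the highest mean count of all, 2144, 2380 and 1105, with a posterior SD of 148, 144 and 119. It is a copy of the giant GTPase gene Gvin1 within Gm4070, and 0.90% of its 31-base words were its own. Eif4a-ps4 stood at 25.6, 145 and 94.2 counts with a posterior SD of 3.91, 9.81 and 7.06.

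The 7 of the class annotated as transcribed are a small group apart, of 64 in the annotation (10.9% detected). Gm7666 was the highest. Gm12543, a copy of the sorting nexin gene Snx2 in Snx30, stood at 27.9, 8.14 and 10.7 TPM, and Gm13548, matched to Stam2, at 13.97, 8.23 and 14.2. Gm13548 lies within Stam2 and overlaps an exon of it, and its match is in the noncoding part, so its source and its host are 1 gene. Apc-ps1, in Tmem165, stood at 14.1, 9.49 and 8.96, Gm29036 at 3.49, 2.13 and 2.27, Ywhaq-ps3 at 1.59, 1.64 and 1.32, and BC022960, outside genes, at 0.990, 0.640 and 1.03. Of the 7, 6 lay in a same-strand gene.

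Outside genes the copies were fewer, and their medians of length were higher and of level lower. The 57 had a median of 1.42 TPM, against 7.05 for those in a same-strand gene and 5.05 for those opposite to one. Their median length was 1533 bases, and at the median 40.0% of their 31-base words were their own. Among them were 14 copies matched to noncoding parts of receptor transcripts, described at the end. Without those 14 the medians were 2.19 TPM, 1350 bases and 55.2%. In 11 of the 57 (19.3%) a detected gene on the same strand ended within 10000 bases before them, against 175 of 7127 undetected copies outside genes (2.46%). Gm6548, a copy of the elongation factor gene Eef1a1 that begins 608 bases after Eif2ak2, the gene of the antiviral kinase PKR, was 1 of these, at 8.12, 6.22 and 7.27 TPM.

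Between libraries the detected copies varied more than detected genes in general. After TMM scaling (which assumes that most genes are equal between libraries), CPM (counts scaled to the library) differed by more than 2-fold between the highest and the lowest library for 114 of 339 (33.6%), against 17.8% of all detected genes. At a mean of 30 to 100 counts the shares were 37.4% (of 131) and 23.1%, and at 10 to 30 counts 27.7% and 22.7%. The widest ranges were those of Gm6206 (12.2, 108 and 39.5 counts, a copy of the ubiquitin ligase gene Cop1), Gm18834 (46, 11 and 48) and Gm47324, at 2.70, 2.43 and 2.41 on the log2 scale. Gm16199, also a copy of Cop1 and identical to it over 288 bases, went the other way from Gm6206, at 44.8, 24.3 and 10.2 counts. Gm15824, opposite to Tbc1d1, stood at 217, 79 and 55, and Gm4734, a Rpl7 copy in Map4, at 66, 38 and 15. Without replicate 1 the mean level of Gm16199 went from 18.6 to 10.5 TPM, that of Gm4734 from 4.36 to 2.185 TPM, that of Gm15824 from 10.2 to 4.375 TPM and that of Gm12543 from 15.6 to 9.43 TPM. Without replicate 2 that of Gm6206 went from 1.26 to 0.815 TPM. Gm17849 was among the steadiest, with a range of 0.08.

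Replicate 1 stood apart from the other libraries. On the log2 scale of TMM-normalised CPM the median detected copy stood 0.26 above its mean over the libraries in replicate 1, and at -0.13 and -0.11 in replicates 2 and 3. In replicate 1, 249 of 339 (73.5%) were above their mean, against 50.0% of all detected genes, and the hosts had a median of -0.0087. The range of these medians was 0.38, 0.0037 without replicate 1 and 0.72 with library totals as the scaling. It was 0.35 when copies were chosen by a mean of at least 10 counts and not by 10 in each library. The shift was seen in copies inside genes. Those of under 98% identity or without a source (247) had medians of 0.30, -0.15 and -0.13. The 57 outside genes had -0.03, 0.07 and 0.05. The 11 near-identical copies outside genes went the opposite way, at -0.51, 0.24 and 0.16, and 9 of the 11 were lowest in replicate 1. The medians of their sources were -0.046, 0.12 and -0.052. Among these 11 were Eif4a-ps4 and Gm6206, named above, and Gm2223, a copy of the initiation factor gene Eif2s3x at 18.0, 45.6 and 40.1 counts. Replicate 1 had the most input RNA and the fewest counts, and the copies were chosen by a minimum count in each library, replicate 1 among them. All detected genes met the same minimum but had higher counts. The part of input, depth or choice in this shift was not tested.

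**Figure D4:**
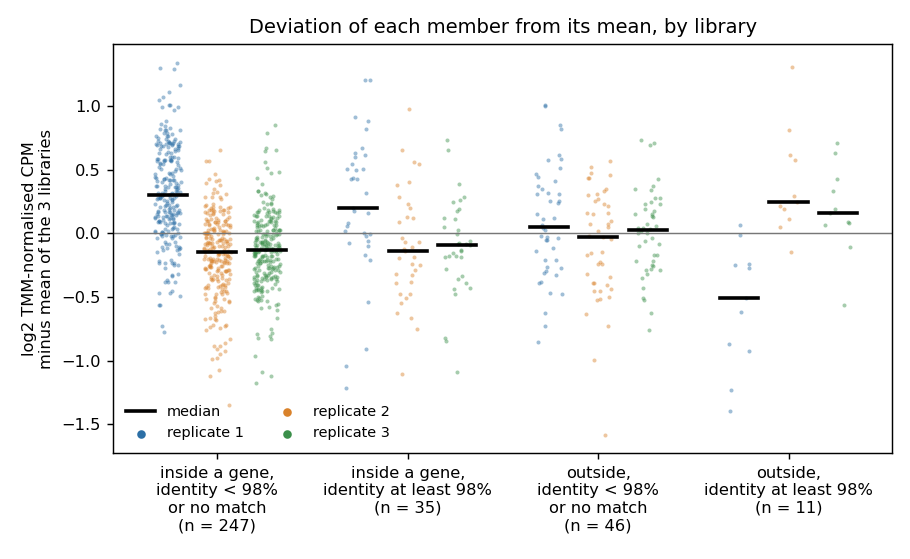
Deviation of each detected processed pseudogene from its own mean over the 3 libraries, in log2 TMM-normalised CPM (vertical axis), by position and by identity to the coding source, with the median as a black bar. Replicate 1 is the highest library in copies inside genes (median 0.30 for those under 98% identity or without a match) and the lowest in near-identical copies outside genes (-0.51).

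A second quantification of the same libraries, deposited per transcript, gave other levels for some of them. More than 1.5-fold higher (0.1 TPM added) were 122 of the 339 (35.99%), against 54.5% of all detected genes, and more than 1.5-fold lower were 14 (4.13%), against 1.02%. At least 10 estimated counts in each library were kept by 327 of 339, against 99.7% of all detected genes. By that measure 840 processed pseudogenes of the class were detected, 513 of them (61.1%) inside a gene. The median log2 ratio was 0.32 for detected copies and 0.65 for all detected genes. Of the 14 that were lower, 10 were at 98% identity or more. Gm10163, the near-identical Rpl21 copy shown first, stood at 12.8, 7.93 and 13.5 TPM in the first quantification (47.0, 49.8 and 56.8 counts, posterior SD 10.9, 12.2 and 13.2) and at 0.00034 TPM on average in the second. Gm12435, a copy of Hnrnpf, had 54.5, 18.7 and 43.2 counts in the first and 0 in each library of the second. Gm7964, a copy of Hnrnpk, had 59.6, 104.5 and 91.9 in the first, and in the second 0 counts in replicates 1 and 2 and 2.81 in replicate 3. Gm9517 and Rbpj-ps3, copies of Ankrd12 and of the Notch effector gene Rbpj, were likewise near 0 in the second. The diverged Rpl21 copy Gm47727, in contrast, stood at 205 TPM in the second against 131 in the first, and Gm6341 at 127 against 134.

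The widest disagreement was in 18 copies whose best match lay wholly in the noncoding part of a transcript of a vomeronasal or olfactory receptor gene (16 with Vmn2r79, 1 with Vmn1r81 and 1 with Olfr46). They were grouped after their values had been seen. They are counted among the 322 with a source, but no annotation of repeated sequence was used here, and whether they descend from messages of these genes was not tested. Their median length was 3841 bases, and 14 lay outside genes. The median copy had 39 other processed pseudogenes like it in the annotation (at least 80% identity over 80% of its length), and 7.12% of its 31-base words were its own. In the first quantification they stood at 0.307 to 3.88 TPM. All 18 were more than 1.5-fold higher in the second, at 8.09 to 516 TPM. Gm48493 had 57, 112 and 56 counts in the first and 35572, 51833 and 33432 in the second. Gm48415 had 10, 11.2 and 22 in the first and 14871, 22407 and 15282 in the second. Summed, the 18 held 753, 938 and 732 counts in the first, and in the second 99552, 148620 and 98031, which was 0.598%, 0.494% and 0.389% of all its gene-level counts. Vmn2r79 itself stood at 0.0067 TPM. With the 18 left out, an alternative chosen after seeing the data, 104 copies were higher in the second.

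**Figure D5:**
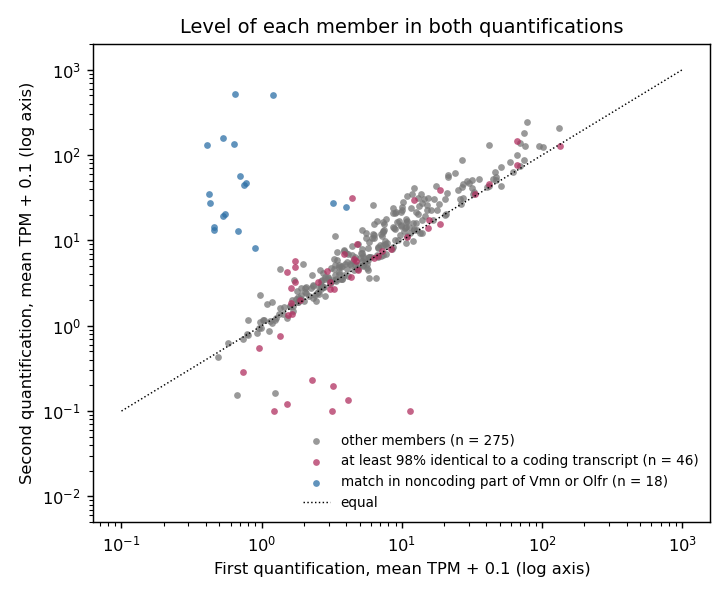
Mean TPM over 3 libraries of each detected processed pseudogene in the first (horizontal axis) and second quantification (vertical axis), both with 0.1 added and on log axes. The 18 copies matched to noncoding parts of receptor transcripts stand far above the dotted line of equality, and most of those far below it are at least 98% identical to a coding transcript.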

How the data were processed

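Ribosomal RNA-depleted total RNA of the chromatin fraction was measured in 3 libraries of 1 group. The authors' gene tables hold expected counts, TPM, FPKM and the posterior SD of the count, as deposited. The second deposited quantification holds estimated counts and TPM per transcript, summed here per gene. The deposited notes name mm10 and GENCODE M21, and that annotation (GRCm38) supplied positions and sequences. The strand setting is not given in the sources used here. Rows naming no mouse gene (1.28%, 0.427% and 0.383% of counts) were left out, and 86 genes without a transcript class could not be classed.

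Counts were rounded for TMM scaling in edgeR 4.0.16 (R 4.3.3), and 0.5 was added before log2 CPM. DESeq2 1.42.0 size factors were an alternative. A host was a gene containing the whole pseudogene. Sources were the plus-strand match with most identical bases among protein-coding transcripts (BLAST+ 2.17.0, word size 11), kept at 70% identity over 50% of the length or more. Words of 31 bases were compared over all transcripts, both strands alike. Reading frames ran from ATG to a stop. The search, word comparison, reading frames and shift were tested on simulated data. With 1 group no test between groups was possible.

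The detected copies, the lists and the alternatives were chosen with earlier results of these data known. Copies were named by rank in TPM, counts, range, ratio of quantifications, identity, length and host level, by nearness to the minimum, by class and symbol, and from the source and lipid A lists (up to 4 each). Gm15467 and Gm44332 were named after their values were seen.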

Additional observations from a re-analysis of the deposited data

How the results depend on the processing

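Few counts limit these results, since the median detected copy had a mean of 37.3 counts and the libraries are 3 of 1 donor code. The number detected was 207 with a minimum of 20 counts, 1002 with any count above 0 in each library, 840 in the second quantification, and 364 to 382 without 1 replicate at a time. The share inside a same-strand gene (33.6%) was 83.2% when either strand counted, and 31.4% to 34.6% without 1 replicate. The median level (4.96 TPM) was 7.15 TPM in the second quantification and 3.40 to 5.17 TPM without 1 replicate, the lowest being without replicate 1. The range of the shift between libraries (0.38) was 0.72 with library totals and 0.0037 to 0.39 without 1 replicate, the lowest again without replicate 1. More than 2-fold higher in the second quantification were 64 copies. The share of all detected genes at 2-fold is not given here. At 1.5-fold it was 54.5%, above the 35.99% of the copies. A source was found for 182 of the 339 at 90% identity, and for 196 of the 207 with a minimum of 20 counts. The share of gene-level counts (0.214%) was 0.711% in the second quantification, and 0.217% there without the 18 copies matched to receptor transcripts (an alternative chosen after seeing the data). These alternatives for the detected share were chosen after seeing the data. In hosts of at least 20 TPM (47.3%) it was 56.7% with a minimum of 5, 36.1% with a minimum of 20 and 60.2% in the second quantification. In hosts below 1 TPM (0.365%) it was 0.912% with a minimum of 5 and 4.19% in the second quantification, and 0.490% to 0.659% without 1 replicate. Outside genes (0.793%) it was 1.29% with a minimum of 5, 0.404% with a minimum of 20, 4.55% in the second quantification, and 0.821% to 1.06% without 1 replicate. Levels were higher in the second quantification in general, with a median log2 ratio of 0.65 over all detected genes. Of 97 named copies, 50 moved by more than 1 SD in the second quantification, and the share over all genes is not given here. The mean TPM of 13 named copies moved by over 1.5 times without 1 replicate, 12 of them without replicate 1. For this too the share over all genes is not given here. The cause of these moves was not tested. No paired analysis was possible because there is only 1 group.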
